A study of Homo sapiens with 7 samples.

Results

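CDKN2A, CDKN2B, MTAP, CDK4, CDK6, CCND1, CDKN1B and RB1 are 8 genes of the pathway that ends at the retinoblastoma protein, or neighbours of its inhibitors. All 8 are among the 13142 genes of the deposited table and among the 11154 that passed a filter on low values (log2 RPKM above 0 in at least 3 of the 7 libraries). They were chosen by name, and CDKN2B was selected on its level in clone KO3 of these same data, where it sat at the value of a gene without reads. That level is therefore given as a description with no test. The libraries are RNA-seq of BHT-101, a human anaplastic thyroid cancer cell line. The wild-type group (WT) has 3 biological replicates, and the knockout group (KO) has 4 clones in which ASH1L, a gene for a histone methyltransferase, carries premature stop codons, and each clone gave 1 library. Per the labels the stop follows residue 413 in KO1, residue 610 in KO2 and residue 2129 in KO3, on both alleles, and residues 2169 and 2174 in KO4. All groups grew in the same serum-containing medium. No clone with intact ASH1L was analysed here, so loss of ASH1L and any other difference between a clone and the WT culture cannot be told apart.

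The pathway works as a brake on entry into S phase. Cyclin D proteins activate the kinases CDK4 and CDK6, which phosphorylate the retinoblastoma protein RB1 and so release the E2F transcription factors. The INK4 proteins p16 (from CDKN2A) and p15 (from CDKN2B) bind CDK4 and CDK6 and block them, while p27 (from CDKN1B) acts mainly on the cyclin E and CDK2 complex. CDKN2A also encodes ARF, from another first exon, which binds MDM2. CDKN2A, CDKN2B and the methionine salvage gene MTAP lie next to each other on the short arm of chromosome 9, a stretch that is often deleted in cancers, and Polycomb complexes are known to repress the INK4 genes.

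CDKN2B (ENSG00000147883, chromosome 9, 22002903 to 22009363, minus strand, hg38) and CDKN2A (ENSG00000147889, chromosome 9, 21967753 to 21995301, minus strand) are 7.6 kb apart, and MTAP (21802543 to 21937651, plus strand) ends 65.3 kb before CDKN2B. The upstream sequences of both inhibitor genes are shown because their transcripts behaved unlike in the clones. They are from RefSeq, GRCh38.p14, read 5′ to 3′ on the minus strand, and the capitals mark GGGCGG or its reverse complement CCGCCC, the core of a GC box. The stretch of 192 bases at chr9:22009364-22009555 lies before CDKN2B, and the stretch of 250 bases at chr9:21995325-21995574 lies before the ARF start of CDKN2A.
CDKN2B: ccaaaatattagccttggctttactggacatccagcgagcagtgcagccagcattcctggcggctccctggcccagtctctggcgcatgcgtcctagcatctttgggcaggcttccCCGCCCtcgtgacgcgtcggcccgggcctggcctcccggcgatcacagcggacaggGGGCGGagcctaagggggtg
CDKN2A: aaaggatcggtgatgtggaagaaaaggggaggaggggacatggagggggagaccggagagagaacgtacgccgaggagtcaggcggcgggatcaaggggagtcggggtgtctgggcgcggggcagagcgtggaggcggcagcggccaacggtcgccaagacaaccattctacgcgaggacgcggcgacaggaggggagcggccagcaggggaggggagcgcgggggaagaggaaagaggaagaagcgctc
The CDKN2B stretch leaves out the transcribed end of its RefSeq window. Over windows of 250 bases there were 2 matches and 18 CpG pairs before CDKN2B, 0 and 24 before the ARF start, and 1 and 20 before the p16 start of CDKN2A, which is not printed. GGGCGG was found on either strand in 42.6% of the 35116 RefSeq windows of 250 bases before gene starts, and the median window holds 11 CpG pairs. A match describes the letters only.

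The depth behind the values was high. Effective library sizes, worked back from the deposited values, ran from 44.03 M reads in KO3 to 70.41 M in KO4. The 7 members other than CDKN2B had between 1011 and 17105 reads in every library, so that counting error was at most 3.15%. The spread between libraries was larger than that: for a typical tested gene the SD was 0.10 log2 units in WT (median) and 0.30 in KO, and the KO group varied more for all 8 members and for 90.4% of all tested genes. Of the epithelial markers EPCAM, KRT8, KRT18, KRT7 and CDH1, all 5 were in the table, with summed levels of 414 to 485 RPKM in WT and 230 to 430 RPKM in the clones. Keratins carry that sum, and CDH1, the gene for E-cadherin, was at log2 RPKM 0.47 to 0.78 in WT, 1.96 in KO2, and -5.86, -2.20 and -2.83 in KO1, KO3 and KO4. Its part in the members' values was not tested. Of the 8 thyroid markers only PAX8 and HHEX were in the table, with 1 passing the filter. The leukocyte, fibroblast and endothelial lists had 1 gene each in the table (CD14, COL1A1 and PECAM1). ASH1L itself was at log2 RPKM 3.22 to 3.34 in WT, 2.42 to 2.69 in KO1, KO2 and KO3, and 3.74 in KO4.

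In WT cells CDK4 and CCND1 had the most abundant transcripts of the 8 genes, and CDKN1B stood above CDK6. On the length-corrected log2 RPKM scale the mean levels were 6.22 for CDK4, 5.48 for CCND1, 4.53 for CDKN1B, 4.02 for CDK6, 3.88 for CDKN2A, 3.61 for RB1, 3.26 for CDKN2B and 1.76 for MTAP. The WT ranges of neighbours in this order did not overlap. Both INK4 genes were thus transcribed in the parental line, at 14.8 RPKM for CDKN2A and 9.59 RPKM for CDKN2B (the linear values of the log2 means).

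**Figure D1:**
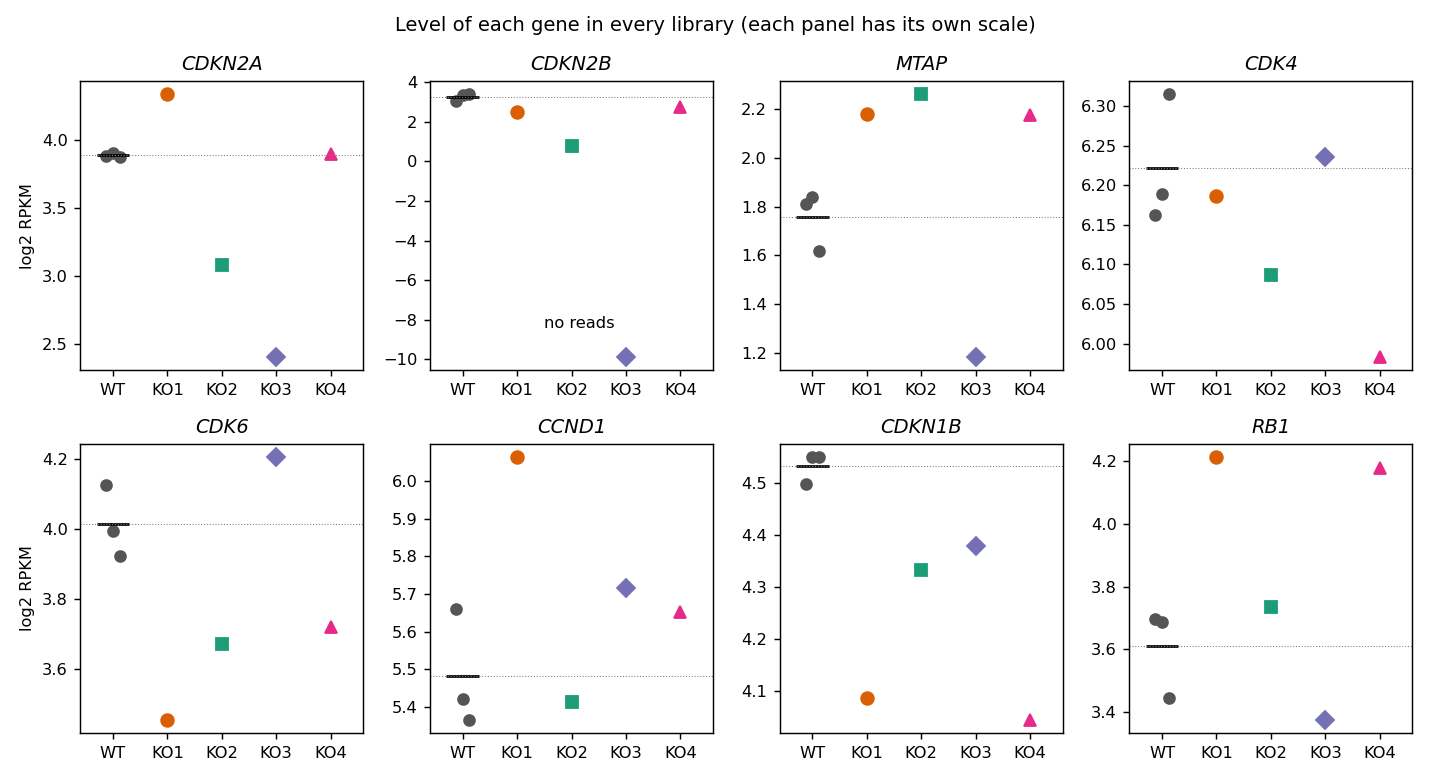
The log2 RPKM of each of the 8 genes, with 1 panel per gene and its own vertical scale. Grey points are the 3 WT libraries, the bar and dotted line their mean, and coloured symbols the clones KO1 to KO4 (1 library each). CDKN2B lies below WT in all 4 clones and at the level without reads, -9.88, in KO3.

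CDKN2B, which encodes p15, varied most, counting the KO3 value on which it was chosen. Levels in the 3 WT libraries were log2 RPKM 3.04, 3.36 and 3.38, and those in the clones were 2.46, 0.77, -9.88 and 2.76 in KO1, KO2, KO3 and KO4. These values correspond to 1885, 2627 and 2523 reads in WT and to 1095, 436, 0 and 1933 reads in the clones. All 4 clones lay below all 3 WT libraries, and KO3 had no read at all. That order was found in 10.1% of all tested genes. For CDKN2B the place of KO3 was fixed by the choice of the gene, so the share is no measure of how rare its order is. Taking 3 reads as the limit that a count of 0 allows in that library, CDKN2B was below 0.0168 RPKM in KO3, at least 574-fold lower than the WT mean of 9.64 ± 1.22 RPKM (SD, n = 3). This limit covers counting error only, and it is not a test, since the gene was picked for this value.

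Few of the 12307 genes with a matched gene model were without reads, and genes absent from the deposited table could not be counted. Genes at 0 reads numbered 1 or 2 in each WT library, and 45, 5, 13 and 6 from KO1 to KO4. In KO3, 5 of the 13 had a mean log2 RPKM above 0 in WT, and they were DEFB1, an epithelial defensin (WT mean 3.90), CDKN2B (3.26), PAGE2 (0.67), LBP (0.52) and SLC6A20, an amino acid transporter (0.50). These names other than CDKN2B were picked after their values were seen. Among the 12307 genes with a matched gene model, CDKN2B was the 1 gene at 0 reads in KO3 with log2 RPKM above 0 in each of the other 6 libraries. DEFB1, for comparison, was also without reads in KO1.

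The other clones were compared with WT gene by gene, using limma with Benjamini-Hochberg adjustment over all 11154 tested genes and the spread of the 3 WT libraries. A single clone was thereby assumed to be as variable as WT. The WT libraries are the same ones that CDKN2B was noticed against. CDKN2B fell in KO2, by 2.5 ± 0.19 log2 units (SE, adjusted p = 0.000583), to 17.7% of the WT level. It fell in KO1 by 0.80 ± 0.19 (adjusted p = 0.0153), to 57.4%. In KO4 it stood at 70.6% of WT, a difference of -0.50 ± 0.19 that did not pass (adjusted p = 0.0976). The KO1 call was lost without WT2 (adjusted p = 0.0763). Without WT1 the KO4 value passed (-0.61, adjusted p = 0.0400). In KO1, KO2 and KO4 CDKN2B was further below its surroundings, which include CDKN2A and MTAP, than below WT. Its 16 tested neighbours within 5 Mb had median differences of 0.44, 0.45, -0.23 and 0.31 from KO1 to KO4, and after these medians were subtracted in each library CDKN2B also passed in KO4 (-0.82 ± 0.20, adjusted p = 0.0427).

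CDKN2A, which encodes p16 and ARF, had another pattern over the clones than CDKN2B. It was at log2 RPKM 3.88, 3.90 and 3.88 in the WT libraries, and at 4.33, 3.08, 2.41 and 3.90 in KO1, KO2, KO3 and KO4. KO1 lay above the narrow WT range, KO2 and KO3 lay below it, and KO4 was inside it. There were 3589 to 4077 reads in WT, and 4278, 2316, 1011 and 4543 in the clones in that order. CDKN2A rose in KO1 by 0.45 ± 0.10 (adjusted p = 0.0109) and fell in KO2 by 0.80 ± 0.10 (adjusted p = 0.00237), to 57.3% of WT. In KO4 the difference was 0.01 ± 0.10 (adjusted p = 0.931). In KO3, where no test was made, it stood at 35.9% of WT. The KO1 difference was close to the shift of its surroundings: the median of the 15 neighbours was 0.42 there, and the position-centred value was 0.02 (adjusted p = 0.869), while the KO2 value grew to -1.20 (adjusted p = 0.00119) and the KO4 value turned to -0.26 (adjusted p = 0.121). The KO1 call was also lost without WT2 (adjusted p = 0.0557). The 15 neighbours include the members MTAP and CDKN2B, and the KO1 median of 0.42 is also the KO1 difference of MTAP itself. The median is thus not independent of the members. The gene value sums the p16 and ARF transcripts, which the table does not separate.

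Reads can be shared between some of these genes. CDKN2A has 341 of its 4329 exon bases (7.88%) under exons of CDKN2B-AS1, the long non-coding RNA also called ANRIL that runs through the locus on the other strand, and whether the counting used strand is not stated. No exon base of CDKN2B lies under an exon of another gene, though CDKN2B lies inside the span of CDKN2B-AS1. Exons of other genes also cover 10.3% of the exon bases of CCND1 and 9.58% of those of MTAP. Transcripts of CDKN2A and CDKN2B share 31 words of 50 bases, 0.765% of those of CDKN2B, and their longest identical stretch is 80 bases.

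MTAP, the enzyme that recycles methylthioadenosine to methionine, stood above WT in the clones other than KO3. WT1, WT2 and WT3 had log2 RPKM values of 1.81, 1.84 and 1.62, and the clones had 2.18, 2.26, 1.18 and 2.17 in KO1, KO2, KO3 and KO4. KO1, KO2 and KO4 lay above all WT libraries and KO3 below them, at 67.2% of the WT level and 1461 reads. MTAP rose in KO1 (0.42 ± 0.14, adjusted p = 0.0497) and KO2 (0.50 ± 0.14, adjusted p = 0.0357), and the KO4 value of 0.42 did not pass (adjusted p = 0.0745). Its 14 neighbours, CDKN2A and CDKN2B among them, had similar medians in KO1 (0.48), KO2 (0.39) and KO3 (-0.53) but not in KO4 (0.08). After position centring the values were -0.06 in KO1 and 0.11 in KO2, with adjusted p of 0.760 and 0.542. Without WT2 neither call held (adjusted p = 0.107 and 0.0946). The KO1 call was also lost with no filter (0.0526) and with a filter at log2 RPKM above 1 (0.0504), and the KO2 call with quantile normalization (0.0680).

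The stretch of 9p around the inhibitors was then read gene by gene. From MLLT3 to PLAA 14 genes were measured, and KO3 lay below all WT libraries in 8 of them and was the lowest of all 7 libraries in 7. Among the 10 of these genes that passed the filter, with CDKN2B set aside, the counts were 6 and 5, while 42.4% and 19.7% of all tested genes had KO3 in these places. No test of this difference was made. The log2 differences of KO3 from the WT mean were -2.0 for MLLT3, 0.09 for FOCAD, 0.49 for HACD4, -0.27 for KLHL9, -1.59 for MIR31HG, -0.57 for MTAP, -1.48 for CDKN2A and -2.0 for CDKN2B-AS1. Beyond CDKN2B, which had no reads, they were 0.00 for DMRTA1, -1.85 for LINC01239, 1.64 for TUSC1, 0.08 for CAAP1 and 0.22 for PLAA. Genes on both sides of CDKN2B thus gave reads in KO3: 1011 for CDKN2A, an estimated 26.8 for CDKN2B-AS1, whose introns hold CDKN2B, and 103 for DMRTA1 at a distance of 437 kb. The runs of lower values were broken by genes at the WT level, such as FOCAD and DMRTA1. Beyond LINC01239 no measured gene up to PLAA was below the WT mean in KO3.

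CDKN2B-AS1 was low in every library and did not pass the filter, so it has no test. WT libraries had log2 RPKM values of -1.96, -1.88 and -1.29, and clones had -1.56, -2.56, -3.71 and -2.81 in KO1, KO2, KO3 and KO4. KO2, KO3 and KO4 lay below all WT libraries, and KO1 was inside the WT range. The microRNA host transcript MIR31HG was at log2 RPKM 1.23 to 1.57 in WT, at 3.25 in KO1 and at 2.66 in KO4; it rose by 1.83 in KO1 (adjusted p = 0.000303) and by 1.24 in KO4 (adjusted p = 0.00350). MLLT3, a gene for a subunit of a transcription elongation complex, rose in KO2 by 1.88 (adjusted p = 0.00270) and fell in KO1 by 1.58 (adjusted p = 0.00266) and in KO4 by 3.32 (adjusted p = 0.000311). TUSC1 was higher in all 4 clones, with differences of 1.97, 1.03, 1.64 and 2.95 in KO1, KO2, KO3 and KO4, and 8.88% of all tested genes had every clone above every WT library. The 11 genes of the stretch that are not members had median differences of 0.27, 0.40, 0.00 and 0.11 from KO1 to KO4. Over chromosome 9 as a whole (418 tested genes) the medians were 0.48, 0.38, 0.04 and 0.29. The part of these shifts in the members' values was not tested.

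**Figure D2:**
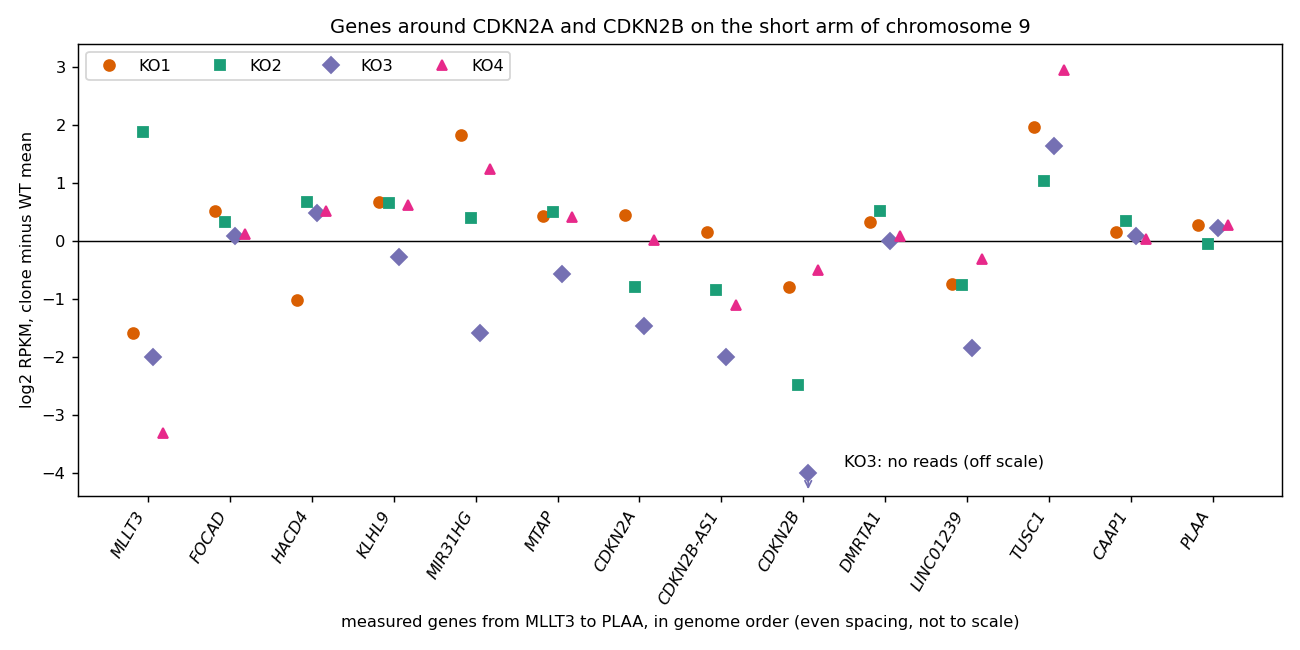
The log2 difference of each clone from the WT mean for the 14 measured genes from MLLT3 to PLAA, in genome order with even spacing. Symbols are the clones, and the KO3 value of CDKN2B, with no reads, is off the scale. KLHL9, MIR31HG, MTAP, CDKN2A, CDKN2B-AS1 and LINC01239 also have their lowest value in KO3. MLLT3 is below WT in KO3 too, but lowest in KO4. FOCAD, DMRTA1, CAAP1 and PLAA lie near WT in KO3.

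CDK4, the main partner of cyclin D, varied least over the clones (SD 0.11 log2 units, n = 4). The WT libraries had log2 RPKM values of 6.16, 6.19 and 6.32, and the clones had 6.19, 6.09, 6.24 and 5.98 in KO1, KO2, KO3 and KO4. The groups overlapped, and no clone that was tested passed (adjusted p of 0.802 in KO1, 0.342 in KO2 and 0.135 in KO4). In KO1 the difference of -0.04 turned to 0.32 after position centring (adjusted p = 0.0345), since its 90 neighbours had a median of -0.35. TSPAN31 on the other strand overlaps 43.2% of the exon bases of CDK4, so part of its reads may be shared.

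CDK6, the second INK4 target, was at 4.13, 4.00 and 3.92 in the WT libraries, and at 3.45, 3.67, 4.21 and 3.72 in KO1, KO2, KO3 and KO4 (log2 RPKM). KO1, KO2 and KO4 lay below all WT libraries and KO3 above them. CDK6 fell in KO1 by 0.56 ± 0.12 (adjusted p = 0.00927). It did not pass in KO2 (-0.34, adjusted p = 0.0611) or KO4 (-0.29, adjusted p = 0.109), and both passed without WT3 (-0.39, adjusted p = 0.0207 and -0.34, adjusted p = 0.0382). In KO1 its 31 neighbours on chromosome 7 stood further below WT, with a median of -0.89, so that the position-centred value was 0.34 (adjusted p = 0.0814).

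CCND1, which encodes cyclin D1, was at 5.66, 5.42 and 5.37 in the WT libraries, and at 6.06, 5.41, 5.72 and 5.65 in KO1, KO2, KO3 and KO4. KO1 was the highest library, and KO2 and KO4 were inside the WT range. CCND1 rose in KO1 by 0.58 ± 0.13, or 1.5-fold (adjusted p = 0.0141), and after position centring by 0.62 (adjusted p = 0.0191). The call was lost without WT2 (adjusted p = 0.0564). In KO2 and KO4 the differences were -0.07 and 0.17, with adjusted p of 0.712 and 0.384, and the KO2 value turned to 0.13 after position centring (adjusted p = 0.508).

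CDKN1B, which encodes p27, was the 1 member besides CDKN2B with all 4 clones below all WT libraries. That order was found in 10.1% of all tested genes. WT levels were log2 RPKM 4.50, 4.55 and 4.55, and clone levels were 4.09, 4.33, 4.38 and 4.04 in KO1, KO2, KO3 and KO4. CDKN1B fell in KO1 by 0.45 ± 0.09 (adjusted p = 0.00999) and in KO4 by 0.49 ± 0.09 (adjusted p = 0.0132), and the KO2 value of -0.20 did not pass (adjusted p = 0.145). Its 31 neighbours had medians of -0.32 in KO1 and -0.29 in KO4, and neither call held after position centring (-0.12, adjusted p = 0.320 and -0.19, adjusted p = 0.177). Without WT2 the adjusted p was 0.0575 in KO1 and 0.0810 in KO4.

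RB1, the pocket protein on which the pathway converges, was at 3.70, 3.69 and 3.45 in the WT libraries, and at 4.21, 3.74, 3.38 and 4.18 in KO1, KO2, KO3 and KO4. KO1 and KO4 stood clear of the WT range, KO2 lay just above it and KO3 just below it. RB1 rose in KO1 by 0.60 ± 0.13 (adjusted p = 0.0115) and in KO4 by 0.57 ± 0.13 (adjusted p = 0.0249), which is 1.52-fold and 1.48-fold. After position centring RB1 still passed in KO1 (0.47, adjusted p = 0.0312) and missed the threshold in KO4 (0.43, adjusted p = 0.0584). In KO4 the call was also lost without WT2 (adjusted p = 0.0732). In KO2 the difference was 0.13 (adjusted p = 0.490).

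Counted by clone, 7 of the 8 members passed in KO1 (4 higher and 3 lower), 3 in KO2 (1 higher and 2 lower) and 2 in KO4 (1 higher and 1 lower). The corresponding shares of all tested genes were 44.1% in KO1, 33.5% in KO2 and 24.8% in KO4. Without WT2 these counts were 2 in KO1 and 0 in KO4, and after position centring they were 4 in KO1 and 1 in KO4. The shares of all tested genes without WT2 and after position centring are not given here. A drop common to all genes can therefore not be told apart. With so few genes, the counts describe the members and say nothing about them as a set.

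**Figure D3:**
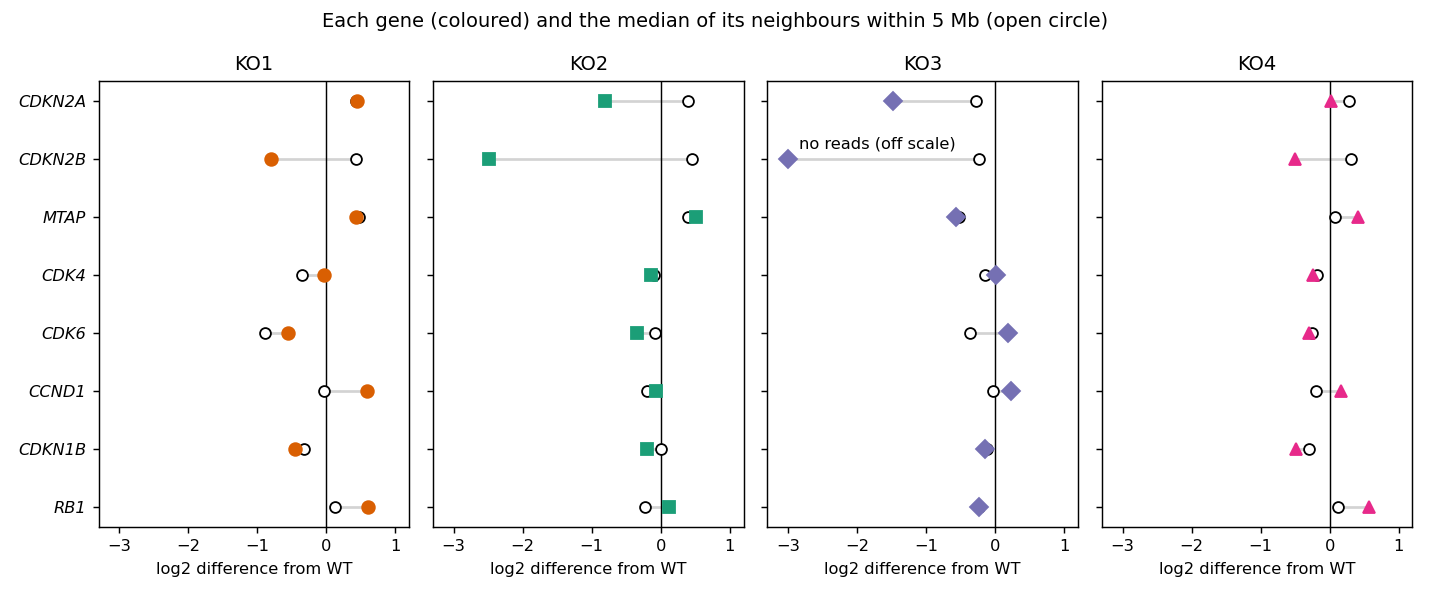
The log2 difference from the WT mean of each member (coloured symbol), with 1 panel per clone. Open circles are the median of the tested genes within 5 Mb of it, other members included. CDKN2B lies to the left of its neighbours in all 4 panels (no reads and off the scale in KO3), and in KO1 the symbols of CDKN2A, MTAP and CDKN1B lie close to their open circles.

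With the 4 clones pooled as replicates of the knockout, no member passed. Among the 7 members other than CDKN2B, 0 had an adjusted p under 0.05 by limma against 0.412% of all tested genes. At an unadjusted p under 0.05 there was 1 of 7, CDKN1B, and 15.7% of all tested genes. CDKN1B differed by -0.32 ± 0.12 log2 units (SE, unadjusted p = 0.0289, adjusted p = 0.264), and permuting the group labels of the 7 libraries in all 35 ways gave p = 0.0571 (exact, two-sided), where the smallest p the design allows is 0.0286. The differences were -0.45 ± 0.42 for CDKN2A (adjusted p = 0.620), 0.19 ± 0.27 for MTAP (0.759), -0.10 ± 0.10 for CDK4 (0.667), -0.25 ± 0.18 for CDK6 (0.524), 0.23 ± 0.17 for CCND1 (0.528) and 0.27 ± 0.22 for RB1 (0.578), each with its adjusted p from limma in parentheses. Leaving out KO3, the clone in which CDKN2B was noticed, moved MTAP to 0.45, CDK6 to -0.40, RB1 to 0.43 and CDKN2A to -0.11, with adjusted p over the 7 members between 0.115 and 0.858.

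The genes around the members in the pathway were described from lists written with earlier results of these data known. The lists overlap: CCNE1, CCNE2, CCNA2, CDC25A, RBL1 and E2F1 stand in more than 1. Genes named from a list were picked by the smallest unadjusted p in KO against WT. Their calls in single clones come from the same libraries and are no further support. In KO against WT no gene of any list passed by limma, beside the 0.412% of all tested genes, and the counts of positive differences are read against 5240 of 11154 genes (47.0%) and an overall median of -0.02. Unadjusted p was under 0.05 for 0 of 3 other CDK inhibitors, 2 of 9 cyclins and CDKs, 2 of 6 pocket protein and MuvB genes, 2 of 9 E2F and DP factors, 4 of 25 E2F targets and 5 of 22 INK4 regulators. It was under 0.05 for 1 of 9 genes of p27 control, 1 of 14 of the methionine and PRMT5 list and 2 of 14 on 9p, beside 1753 of all 11154 genes. Under quantile normalization 1 of the E2F targets passed. The other CDK inhibitors had 1 positive and 2 negative values of 3 (median -0.07). CDKN2D, the INK4 gene for p19, had log2 RPKM values of 3.01, 2.95 and 2.97 in the WT libraries, and of 3.39, 2.19, 2.30 and 3.74 in KO1, KO2, KO3 and KO4. It was above WT in KO1 and KO4 (adjusted p = 0.0193 and 0.00376) and below in KO2 (adjusted p = 0.00323), and low in KO3. CDKN2C, the gene for p18, fell in KO2 by 0.94 (adjusted p = 0.0316) and stood 0.84 below WT in KO3. CDKN1A, which encodes p21, had a pooled difference of 0.53 ± 0.38 (adjusted p = 0.521), with 4.95 in KO3, its highest library, against 3.33 to 4.29 in WT.

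On the kinase side, the other cyclins and CDKs of G1 and S had 6 positive values of 9 (median 0.10). The cyclin E genes CCNE1 and CCNE2, partners of CDK2 and themselves E2F targets, had pooled differences of 0.48 ± 0.20 and 0.65 ± 0.23 (adjusted p = 0.305 and 0.236). For both, every clone was above every WT library, an order found in 8.88% of all tested genes. Margins were narrow: the lowest clone and the highest WT library were at 1.88 and 1.79 for CCNE1, and at 2.35 and 2.30 for CCNE2. The pocket proteins and MuvB subunits had 5 positive values of 6 (median 0.20), led by LIN52 at 0.52 (adjusted p = 0.187). The E2F and DP factors had 9 positive values of 9 (median 0.28), and 8 of 9 after position centring (median 0.19). TFDP2, a dimer partner of E2F, rose in KO1, KO2 and KO4, by 1.03, 0.96 and 0.90 (adjusted p = 0.00355, 0.00776 and 0.0116), and stood at 0.01 in KO3. E2F8 had a pooled difference of 0.54 (adjusted p = 0.298), which was 0.19 after position centring, and E2F1 of 0.31 (adjusted p = 0.443).

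The 25 E2F target genes had 14 positive and 11 negative values (median 0.05), and 17 positive ones under quantile normalization and after position centring. CHEK1, a checkpoint kinase gene on chromosome 11, came nearest to the threshold. Log2 RPKM of CHEK1 was 3.32, 3.36 and 3.09 in WT, and 2.59, 2.61, 2.49 and 2.5 in KO1, KO2, KO3 and KO4, a difference of -0.71 ± 0.11 (adjusted p = 0.0568). All clones were below all WT libraries, an order found in 10.1% of all tested genes. The pooled difference was -0.09 after position centring (adjusted p = 0.722). MCM7, a helicase subunit, differed by -0.49 (adjusted p = 0.160), and by -0.11 after position centring (adjusted p = 0.541). From KO1 to KO4 the list had medians of 0.22, 0.05, -0.02 and 0.08.

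The regulators of the INK4 locus had 11 positive and 11 negative values of 22, with a median of 0.00 that was 0.07 under quantile normalization. The genes named here were picked by unadjusted p in KO against WT, so their clone calls do not describe the list. EZH2, the methyltransferase of Polycomb repressive complex 2, was at 5.01, 5.01 and 5.0 in the WT libraries, and at 4.43, 4.48, 4.77 and 4.54 in KO1, KO2, KO3 and KO4. It fell in KO1, KO2 and KO4, by 0.58, 0.53 and 0.47 (adjusted p = 0.00311, 0.00758 and 0.0129), with a pooled difference of -0.46 ± 0.11 (adjusted p = 0.138) that was -0.23 after position centring. SUZ12, of the same complex, differed by 0.44 (adjusted p = 0.184), and by 0.10 after position centring. The TGF-beta receptor gene TGFBR1 differed by 1.06 (adjusted p = 0.222) and rose in KO1, KO2 and KO4, by 1.84, 0.66 and 1.42 (adjusted p = 0.000122, 0.0137 and 0.00101). ETS1, an activator of p16, differed by -1.01 (adjusted p = 0.205), and by -0.38 after position centring. It fell in the same 3 clones, by 0.50, 1.91 and 0.60 (adjusted p = 0.00721, 0.000171 and 0.00704). In KO3, which was not tested, the differences from the WT mean were -1.02 for ETS1 and 0.31 for TGFBR1. For p27, 3 of 9 genes of its turnover and control had positive values (median -0.06, which was 0.02 after position centring), and FOXO1, a transcription factor that activates CDKN1B, differed by -0.69 (adjusted p = 0.205). The methionine salvage and PRMT5 list, the genes next to MTAP in its pathway, had 4 positive values of 14 (median -0.12), with CLNS1A, a partner of PRMT5, at -0.38 (adjusted p = 0.205) and at -0.14 after position centring. The 9p list had 10 positive values of 14 (median 0.22).

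**Figure D4:**
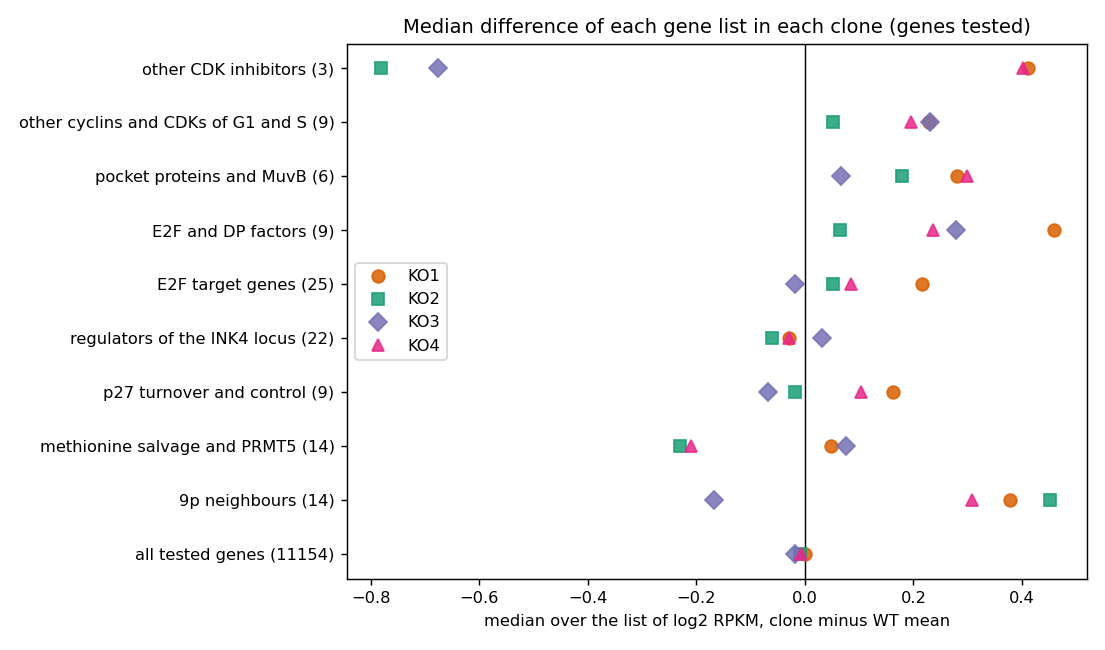
The median over each gene list described here of the log2 difference from the WT mean, for each clone, with the number of tested genes in parentheses and all tested genes in the bottom row. The medians of the other CDK inhibitors (3 genes) lie on the right for KO1 and KO4, at 0.41 and 0.40. They lie on the left for KO2 and KO3, at -0.78 and -0.68. Each is the value of 1 gene, CDKN2D in KO1, KO2 and KO3 and CDKN1A in KO4. The genes do not all split this way: CDKN1A is at 1.12 in KO3 and CDKN2C at -0.07 in KO4.

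The genes most like CDKN2A and CDKN2B across the 7 libraries were found by the root mean square difference of their log2 differences from the WT mean. For CDKN2A they were STMN3 (0.20), RPL5P12 (0.23), TGFB1I1 (0.23), AMOTL1 (0.24) and CTD-2008L17.1 (0.25). STMN3, a stathmin gene on chromosome 20, was at 5.10 to 5.16 in WT and at 5.11, 4.50, 3.52 and 5.11 from KO1 to KO4, low in the same pair of clones as CDKN2A. For CDKN2B the order of likeness is set mostly by its value without reads in KO3, on which it was chosen and whose size depends on the prior count, so genes very low in KO3 had to come first. The nearest genes were RP11-412P11.1 (1.68), SLC6A20 (1.73), RP11-150O12.6 (2.03), RP11-408N14.1 (2.23) and SLCO2A1 (2.26). In KO3 these 5 genes were at log2 RPKM between -10.6 and -6.68, and SLC6A20 was higher than WT in KO2 (1.83 against 0.41 to 0.60), where CDKN2B was lower. No tested gene came closer to CDKN2B than 1.68 on this measure.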

How the data were processed

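RNA-seq of BHT-101 cells was analysed as 3 WT libraries and 4 ASH1L KO clones (1 library each), grouped by the titles and genotype labels. The authors deposited log2 RPKM, log2 of reads per kilobase of gene and per M reads of the library, for 13142 genes. The tools listed in the submitters' processing notes are HTSeq 0.11.2, edgeR, STAR 2.5.3a and Trim Galore 0.4.1, with build hg38; annotation, strand setting and prior count are not given in the sources used here.

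Reads behind each value were worked back from GENCODE 29 merged exon lengths (12307 genes matched by name, 93.6%; 3 by synonym). In the 7 genes that share a lowest value between libraries the same constant appeared, which sets the level without reads. The prior of each library was then fitted so that reads came out whole, with a mean of 0.25 reads. With these priors, 93.8% to 94.1% of values standing for 1 to 1000 reads came out whole within 0.05 reads. Those of RB1 and CDKN2B-AS1 did not and are estimates. The share of whole reads is no independent check, since the priors were fitted to it and whole multiples of them would also give whole reads. Because lengths were taken from an annotation, no count test was run.

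Genes with log2 RPKM above 0 in at least 3 libraries (11154) were tested with limma 3.58.1 in R 4.3.3 (trended moderated variances, Benjamini-Hochberg adjustment over all of them, adjusted p under 0.05). No pseudocount or scaling was added. KO3 was not tested against WT, nor CDKN2B in the pooled comparison. Position centring subtracted, in each library, the median of the differences over neighbours within 5 Mb (at least 10 genes). The members and lists were chosen with earlier results of these data known. Named were the members, up to 4 genes per list by unadjusted p, the measured genes from MLLT3 to PLAA, the 5 genes nearest to CDKN2A and to CDKN2B, and genes without reads in KO3 alone (only CDKN2B). DEFB1, PAGE2 and LBP were named outside this rule, after their values were seen. The fits were tested on simulated data. The replicate numbers of the titles were not taken as pairs. The results of 1 gene list are not reported here.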

Additional observations from a re-analysis of the deposited data

Results flagged for a closer look

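Among the 65 named genes, 7 had 1 clone that stood so far from the other 3 that its gap to the nearest of them, as a share of the range of the 4 clones, passed the 95% limit of Dixon's test. For 4 values from 1 normal distribution, chance alone gives about 1 in 20 such genes. The choice of CDKN2B, and of the 5 genes most like it, rested on KO3, so those flags carry no weight. Among the other 59 genes 5 were so distant, 3 of them in KO3. These 59 include the 5 genes most like CDKN2A and list genes picked by unadjusted p. The share of all tested genes past this limit is not given here, so the count shows no excess. In KO3, CDKN2B was at log2 RPKM -9.88, which was known when it was chosen, and RP11-412P11.1, named for its likeness to CDKN2B, was at -8.98. MTAP was at 1.18 in KO3 and KLHL9, a ubiquitin ligase adaptor gene on the same stretch of 9p, was at 2.12, both below the other clones. TFDP2 was at 1.43 in KO3, inside its WT range, while the other 3 clones were higher. HACD4 was at -2.13 in KO1 and PLAA at 4.33 in KO2, both the lowest of the clones.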

How the results depend on the processing

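The differences of the 7 members in KO against WT were computed under 15 alternatives, and 0 members passed under each of them. CDK4 and CDK6 changed sign after position centring, to 0.0962 and 0.157, and no other member did under any alternative. The number of all genes called, 46, was 56 with no filter, 30 with a filter above 1, 114 with quantile normalization, 75 with log2(RPKM + 1), 1 after position centring, 236 without KO2, 87 without KO3, 1 without KO4 and 0 without any 1 WT library. For single clones, under 10 alternatives per member and clone, 209 values kept sign and call. With the sign kept, 16 lost the call and 5 gained it, and 10 changed sign. Among those that changed sign, MTAP and CDK6 in KO1 also lost the call after position centring, and CDK4 in KO1 gained it. Sign changes after position centring were to -0.0571 for MTAP, 0.315 for CDK4 and 0.34 for CDK6 in KO1, 0.13 for CCND1 in KO2 and -0.262 for CDKN2A in KO4; 4 members then passed in KO1 and 1 in KO4. CDK4 in KO1 was 0.0197 with quantile normalization, 0.0413 with median centring and -0.0653 to 0.0109 without 1 WT library, and CCND1 in KO2 was 0.0397 with quantile normalization and -0.129 to 0.0186 without 1 WT library. Without 1 WT library, 2 to 7 members passed in KO1, 2 to 4 in KO2 and 0 to 3 in KO4. CDKN2A and CDKN2B in KO2 and RB1 in KO1 kept sign and call under all 10. The cause of these changes was not tested, and the shares of all tested genes that passed in each clone under these alternatives are not given here.

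Deviations of libraries with the same replicate number correlated at 0.06 (WT1 and KO1), 0.07 (WT2 and KO2) and -0.01 (WT3 and KO3). These values cannot exclude pairing, since the KO deviations also hold the differences between clones. The labels do not say that the numbers pair the libraries. With the replicate block, which leaves KO4 out of the estimate, CDKN2A was at -0.61, CDKN1B at -0.27 and RB1 at 0.17, with 0 members and 0 genes called. Had the prior been 0.5 or 2 reads, the WT mean of CDKN2B would be 4690 or 18760 reads in place of 2345. KO3 has 0 under any prior, since the level without reads stands for 0 by definition, so its 0 is no check. With 1 library per clone, the spread within a clone is unknown.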
